A study of Homo sapiens with 4 samples.

Results

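Long intergenic noncoding RNAs (LINC RNAs) were followed in UMSCC74B cells, an established line of head and neck squamous cell carcinoma (HNSCC). The RNAs were chosen by name and by their raw counts: gene names made of LINC and a number, with at least 20 estimated counts in both libraries of a group. Of 532 such names in the count tables, 144 met that minimum, among 29655 gene names in all. These were 116 names with at least 20 counts in all 4 libraries, 19 that reached it only in the control libraries and 9 that reached it only in the PRMT5 KD libraries. A further 205 LINC names had counts but stayed below the minimum, and 183 had none.

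The study compared 2 libraries of cells given a control shRNA with 2 libraries of cells given a PRMT5 shRNA (PRMT5 KD), all collected 72 h after transfection. The labels give a wild-type genotype for the line, total RNA and a directional library kit, and nothing says whether the 2 libraries of a group came from separate cultures, so each test measures only the spread between these libraries. The libraries held 52185289 to 65964558 counts, of which LINC names took 0.0901% to 0.121%. Ribosomal RNA names took 14.2% and 15.3% of the control counts and 18.0% and 26.2% of the PRMT5 KD counts. PRMT5 itself, the gene the shRNA was aimed at, had 3732 and 4215 counts in control and 6285 and 7150 in PRMT5 KD, so it was higher in the libraries labelled PRMT5 KD (log2 fold change 0.77, edgeR FDR 0.00278), and every direction below follows the labels. The squamous keratin genes KRT5, KRT14 and KRT6A and the cadherin gene CDH1 had at most 22 counts in any library. Of the other squamous markers, DSG3 (1704, 1823, 893 and 1216 counts) and TP63 (218, 330, 83 and 144 counts) were detected and lower in PRMT5 KD, KRT17 had 5, 6, 53 and 71 counts, and all 7 summed to 32.5 and 36.6 CPM (counts scaled to the library total) in control and 17.7 and 24.8 CPM in PRMT5 KD. The 5 fibroblast markers examined (COL1A1, COL1A2, COL3A1, DCN and PDGFRB) summed to 354.5 and 433.4 CPM in control and 51.9 and 60.8 CPM in PRMT5 KD, and all 5 were lower, so 4 of the 7 squamous markers were at or near 0 while fibroblast markers were present, and their part in the results below was not tested. Markers of endothelium (8.18 and 11.1 CPM against 1.70 and 0.934 CPM) and of leukocytes (at most 0.195 CPM) were low.

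LINC RNAs are transcripts named for lying between protein-coding genes and for having no evident long reading frame when they were named. Some act in the nucleus on chromatin or splicing, some act in the cytoplasm by holding RNA-binding proteins or other RNAs, and some are read by the ribosome into small proteins. Their levels are usually low and vary between tissues and tumours more than those of messenger RNAs. PRMT5, the enzyme the shRNA targets, places symmetric dimethylation on arginines of histones, splicing proteins and RNA-binding proteins such as FXR1.

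Low levels were also the rule in UMSCC74B cells. Over the 4 libraries, 2 LINC RNAs averaged at least 100 CPM, 21 averaged 10 to 100 CPM, 71 averaged 1 to 10 CPM and 50 averaged less than 1 CPM. The median over the 116 LINC RNAs counted in all 4 libraries was 3.28 CPM, against 20.4 CPM over all 14085 gene names that met the same minimum. At that level replicates spread more: the median absolute log2 ratio between the control libraries was 0.21 for the LINC RNAs and 0.15 for all those names, and between the PRMT5 KD libraries it was 0.33 and 0.19. Of the 144 names, 41 carry another symbol today, and 12 are now typed as protein-coding by RefSeq. The sequences below come from RefSeq (promoters, GRCh38.p14) and GENCODE 44 (transcripts, GRCh38).

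LINC00657, now NORAD, took the most reads. NORAD is a cytoplasmic RNA induced by DNA damage that binds PUMILIO proteins, which repress messenger RNAs. It had 10717 and 15554 counts in control and 11840 and 8908 in PRMT5 KD, 15.5% to 20.7% of all counts of the 144 names in a library. The levels were 202 and 233 CPM in control and 201 and 151 CPM in PRMT5 KD. The groups did not overlap, but control 1 and PRMT5 KD 1 were level, and the difference did not pass (log2 fold change -0.31 ± 0.17 SE, edgeR FDR 0.169). Without PRMT5 KD 1 it did pass, at -0.54 (FDR 0.014).

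The gene is a single exon of 5401 bases on the minus strand at chr20:36045618-36051018. The PUMILIO pattern TGTANATA, where N is any base, occurred 15 times on its transcript strand, or 2.78 times per kb. Of 128 LINC RNAs with a transcript in GENCODE, 20 held the pattern at least once (15.6%), against 33.3% of 13275 protein-coding transcripts, which are longer (median 3401 against 1936 bases). Per 100 kb of transcript there were 15.5 matches in LINC and 13.4 in protein-coding transcripts. The LINC value includes the 15 matches of LINC00657 itself and 10 of LINC00632, so it does not describe LINC RNAs in general. A window of 240 bases (transcript positions 1281 to 1520, chr20:36049499-36049738) is shown because it holds 3 of the 15 matches, which are in capitals.
LINC00657: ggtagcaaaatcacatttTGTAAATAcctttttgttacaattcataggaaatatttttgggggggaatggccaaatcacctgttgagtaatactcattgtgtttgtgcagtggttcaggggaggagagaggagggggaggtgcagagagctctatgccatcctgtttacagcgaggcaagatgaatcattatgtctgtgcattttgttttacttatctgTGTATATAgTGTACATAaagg

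The next by reads were LINC01000, at 155 and 121 CPM in control and 92.9 and 100.5 CPM in PRMT5 KD, and LINC00942, at 99.6 and 101 CPM in control and 79.97 and 101 CPM in PRMT5 KD. LINC01000 was lower in PRMT5 KD (log2 fold change -0.51 ± 0.15, FDR 0.0242), without overlap of the groups. That call was lost without control 1, where the value was -0.35 (FDR 0.145), without PRMT5 KD 1, at -0.48 and so under the fold threshold, and with the replicate number as a block, where the FDR was 0.0503. LINC00942 showed -0.15 ± 0.14 (FDR 0.413) with overlapping groups. Compared per kb of exon, LINC00942 stood at 43.1 CPM per kb and LINC00657 at 36.5 CPM per kb, so the order of their levels was the reverse of the order of their reads. LINC00162, now PICSAR, is an RNA found raised in cutaneous squamous carcinoma. It was ranked 19 of 116 by CPM and 4 of 104 per kb (14.8 CPM per kb). LINC00998 followed at 11.7 CPM per kb. The 104 are those with an exon length of their own in GENCODE, and LINC01000 is not among them. LINC00674 led that list at 191 CPM per kb, but GENCODE gives it only 160 exon bases, so its value per kb is uncertain.

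More LINC RNAs were lower than higher in PRMT5 KD. A difference was called at an FDR below 0.05 and a log2 fold change of 0.5 or more in either direction, where FDR is the p-value of edgeR's quasi-likelihood test after Benjamini-Hochberg adjustment over all names. Of the 116 LINC RNAs counted in all 4 libraries, 11 were called higher and 33 lower, and 72 were not called. The background over the 14085 gene names with the same counts was 44% called, 23.5% higher and 20.4% lower, and among the LINC RNAs 9.48% were called higher and 28.4% lower. The median log2 fold change was -0.34 over the 116, with 34 above 0 and 82 below, and 0.05 over all 14085 names. Other long noncoding RNA names had a similar lean: of 317, 27 were called higher and 72 lower, with a median of -0.24. Protein-coding names of low level, under 20 CPM, had a median of 0.04, with 1315 of 5560 called higher and 1175 lower.

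**Figure D1:**
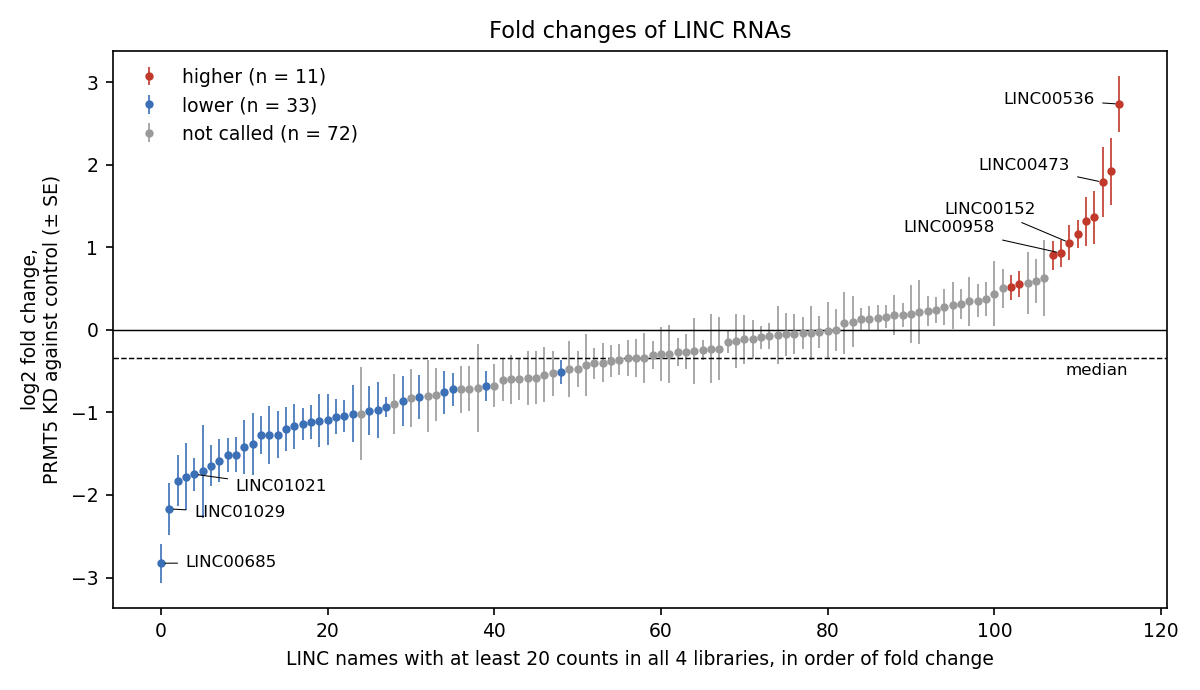
Log2 fold changes (vertical axis, PRMT5 KD against control, ± SE) of the 116 LINC RNAs with at least 20 counts in all 4 libraries, in order along the horizontal axis. Each point is a LINC RNA, coloured by its call (11 higher, 33 lower, 72 not called), and the dashed line is their median, -0.34.

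**Figure D2:**
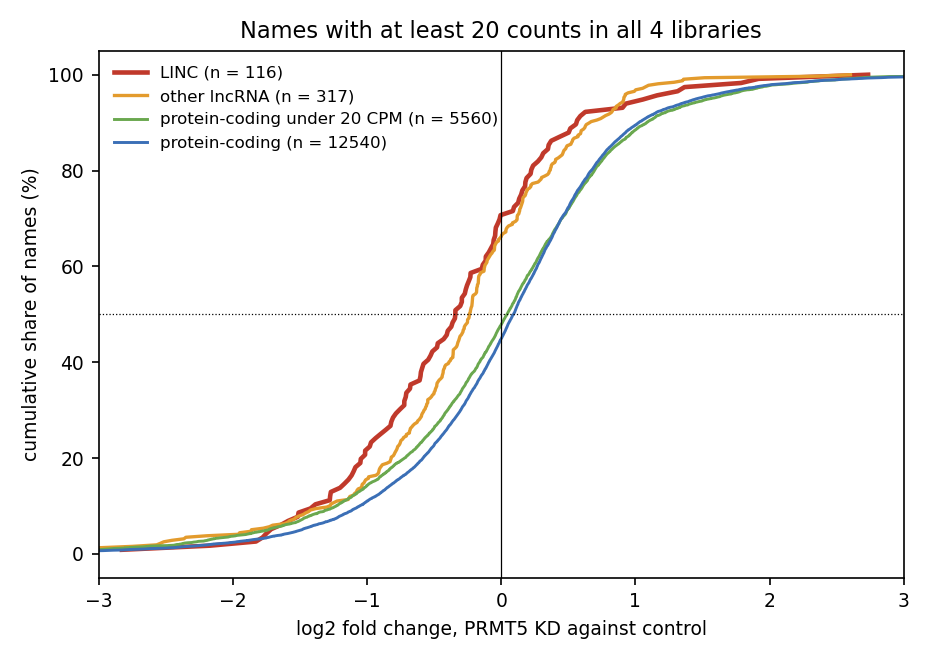
Cumulative share of names (vertical axis, %) by log2 fold change of PRMT5 KD against control (horizontal axis, drawn from -3 to 3), for 116 LINC, 317 other long noncoding, 5560 low-level protein-coding and 12540 protein-coding names. Each line crosses 50% at its median, which is -0.34 for LINC, -0.24 for other long noncoding and 0.09 for protein-coding names.

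Among LINC RNAs of higher level the lean was smaller, a difference that was not tested. Among the 42 LINC RNAs of at least 5 CPM, 7 were called higher (16.7%) and 9 lower (21.4%), and the median was -0.12. Over all 14085 names 23.5% were called higher and 20.4% lower. The CPM summed over all 144 names was 1179 and 1127 in control and 973 and 975 in PRMT5 KD. This sum includes 19 names that met the minimum only in control and 9 only in PRMT5 KD. The differences of those names follow in part from the rule. Without LINC00657 the sum was 977 and 893 in control and 772 and 823 in PRMT5 KD. By groups alone, 22 of the 116 had both PRMT5 KD values above both control values and 60 had both below, against 42.1% and 36.3% of the 14085 names. Without control 1, 20 LINC RNAs were called (7 higher, 13 lower), and without control 2, 20 were called (3 higher, 17 lower). The median without each library in turn stayed between -0.43 and -0.25. Of the 44 calls, 14 were kept in every one of 16 other fits and no call changed sign.

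A list of 6 nuclear RNAs was examined because they had moved with the groups in earlier results of these data. Of the 6, 4 were called lower in PRMT5 KD, against 20.4% of all 14085 names, and 2 were not called. The list came from these same data, so the number of calls is no independent result. MALAT1, which lies in nuclear speckles, fell from 15115 and 13255 CPM in control to 1536 and 2690 CPM in PRMT5 KD (log2 fold change -2.75, FDR 0.000887). NEAT1, the scaffold of paraspeckles, fell from 1755 and 1392 CPM to 284 and 291 CPM (-2.45, FDR 0.000241). KCNQ1OT1 was lower by -1.95 and RN7SK by -1.33, though not without control 2 (-1.11, FDR 0.0604), while RPPH1 (-0.56, FDR 0.0685) and RMRP (-0.73, FDR 0.0549) did not pass. RPPH1 and RMRP did pass in some other fits, among them DESeq2 (FDR 0.0139 and 0.00661) and scaling by total counts alone (FDR 0.0391 and 0.0105). Their part in the lower LINC RNAs was not tested, and fewer cells holding an RNA cannot be told apart from less of it in each cell.

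The LINC RNAs that rose included several known from carcinoma. The 8 largest called increases whose groups did not overlap were LINC00536, LINC00944, LINC00473, LINC00669, LINC01096, LINC00857, LINC00152 and LINC00958. LINC00536 showed the largest of them, from 117 and 72 counts in control to 593 and 683 in PRMT5 KD, a log2 fold change of 2.73 ± 0.34 (FDR 0.00139). It is spread over 14 exons on chromosome 8, and TRPS1, the nearest protein-coding gene, lay 140838 bases away and did not pass (-0.53, FDR 0.144).

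**Figure D3:**
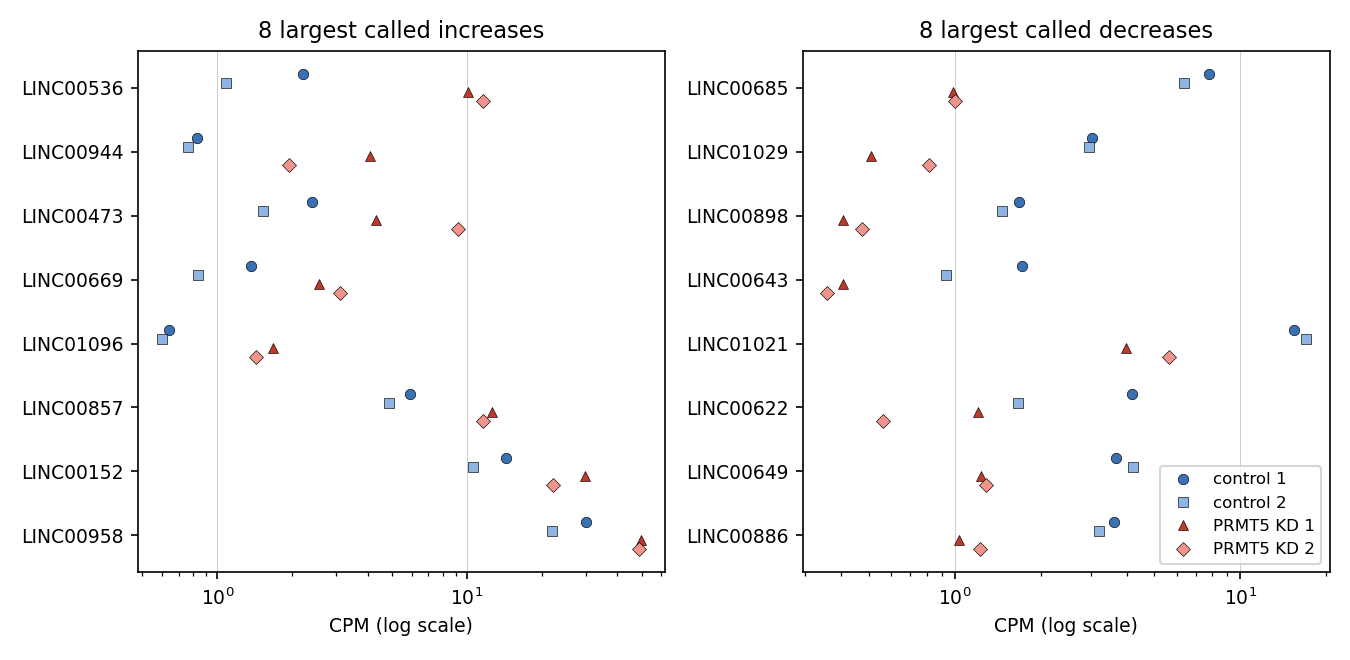
Levels in CPM (horizontal axes, log scale) of the 8 largest called increases (left) and the 8 largest called decreases (right), with 1 point per library, circles and squares for control and triangles and diamonds for PRMT5 KD. In each row the control and PRMT5 KD points do not overlap, and the PRMT5 KD points of LINC00473 and LINC00944 lie far apart.

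LINC00958 had the most reads of the 8. It has been described as a growth-promoting RNA in oral and other squamous carcinomas. It had 29.8 and 21.9 CPM in control and 49.7 and 48.8 CPM in PRMT5 KD (log2 fold change 0.93 ± 0.16, FDR 0.00379), and the PRMT5 KD libraries lay closer together than the control libraries. It stayed called in every other fit, between 0.71 and 1.14.

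LINC00857, at chr10:80207372-80219657, rose from 314 and 325 counts to 739 and 682 (1.16 ± 0.17, FDR 0.00195) and was also called in every other fit. Its mean level was 5.40 ± 0.745 CPM (SD, n = 2) in control and 12.1 ± 0.696 CPM in PRMT5 KD. LINC00152, now CYTOR, a cytoplasmic RNA tied to growth of many carcinomas, rose from 760 and 704 counts to 1746 and 1298 (1.06 ± 0.21, FDR 0.00673). Without control 2 its call was lost (0.84, FDR 0.0611). Its reads cannot be assigned with certainty, since 79.3% of the 31-base words of its transcript also occur in transcripts of MIR4435-2HG, a near copy elsewhere on chromosome 2. That copy, listed under its older name MIR4435-1HG, had 768, 783, 1589 and 1312 counts (log2 fold change 0.91 ± 0.17, FDR 0.00466), nearly the same values in each library.

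The 300 bases around the starts of LINC00857 and LINC00152 are shown because both RNAs rose, with matches to 6 searched patterns in capitals. The patterns were TATAAA, the CCAAT box, the GC box GGGCGG, AP-1 (TGANTCA), the cyclic AMP response element TGACGTCA and the interferon response pattern, all on either strand, and the matches in these promoters do not overlap.
LINC00857 (GRCh38.p14, chr10:80207460-80207759, plus strand): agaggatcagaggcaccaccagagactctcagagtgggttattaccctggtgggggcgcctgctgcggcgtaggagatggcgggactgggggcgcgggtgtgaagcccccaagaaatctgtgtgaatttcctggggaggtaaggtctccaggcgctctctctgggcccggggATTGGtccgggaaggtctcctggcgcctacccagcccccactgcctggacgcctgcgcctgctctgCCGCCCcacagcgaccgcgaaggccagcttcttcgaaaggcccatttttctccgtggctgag
LINC00152 (GRCh38.p14, chr2:87455177-87455476, plus strand): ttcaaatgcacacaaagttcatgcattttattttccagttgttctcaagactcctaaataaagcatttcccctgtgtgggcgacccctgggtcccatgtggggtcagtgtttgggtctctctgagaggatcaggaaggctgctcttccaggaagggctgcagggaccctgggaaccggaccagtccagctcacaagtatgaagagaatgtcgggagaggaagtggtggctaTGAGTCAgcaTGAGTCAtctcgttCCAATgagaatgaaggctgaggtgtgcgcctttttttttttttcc
The capitals mark a CCAAT box and a GC box, each on the minus strand, in LINC00857, and 2 AP-1 patterns and a CCAAT box in LINC00152. The AP-1 pattern was present in 12 of 105 LINC promoters (11.4%) and 7.71% of all 35116 promoters, the CCAAT box in 42.9% and 34.6%, and the GC box in 40.0% and 45.0%. Among LINC RNAs called higher, 2 of 8 promoters held AP-1, and among those called lower, 3 of 23 did. The TATA pattern was in 9.52% of LINC and 11.5% of all promoters, the cyclic AMP pattern in 1.91% and 1.85% and the interferon pattern in 4.76% and 3.57%. The median GC content was 60.0% in LINC and 58.7% in all promoters.

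The remaining increases were less even. LINC00473, a target of the transcription factor CREB, had 2.40 and 1.53 CPM in control and 4.30 and 9.20 CPM in PRMT5 KD (1.79 ± 0.42, FDR 0.0152). PRMT5 KD 2 was over the other 3 libraries, and the value was 1.13 without it. LINC00944 had 44, 51, 241 and 114 counts (1.92 ± 0.41, FDR 0.00836), with PRMT5 KD 1 highest and a value of 1.26 without it. LINC00669, the host RNA of a microRNA (MIR924HG), had 72, 56, 150 and 182 counts (1.37 ± 0.32, FDR 0.0117), and LINC01096 had 34, 40, 98 and 84 (1.31 ± 0.30, FDR 0.00988). Without control 2 the calls of LINC00473 (1.48, FDR 0.0881) and LINC00669 (1.04, FDR 0.106) were lost, and those of LINC00944 and LINC01096 were lost without either control library, at FDR 0.0618 to 0.0929. NKX3-2, a homeobox gene 1567 bases from LINC01096, moved the other way (-1.27, FDR 0.0195).

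The largest decrease was that of LINC00685. It lies at chrX:319145-321332 (RefSeq), in the part of the X chromosome shared with the Y. It had 413 and 423 counts in control and 58 and 59 in PRMT5 KD, 7.07 ± 1.03 CPM against 0.994 ± 0.0111 CPM (SD, n = 2). The log2 fold change was -2.83 ± 0.23 (FDR 0.000324) and stayed between -2.98 and -2.70 in every other fit. The other large decreases with groups apart were LINC01029 (160, 197, 30 and 48 counts, -2.17 ± 0.32), LINC00898 (89, 98, 24 and 28 counts, -1.83 ± 0.31), LINC00643, LINC01021, LINC00622, LINC00649 and LINC00886 (191, 213, 61 and 72 counts, -1.59 ± 0.26). LINC01029, LINC00898 and LINC00886 were called in every other fit.

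LINC00643, now named as a pseudogene (SERTAD4BP), fell from 91 and 62 counts to 24 and 21 (-1.78 ± 0.41, FDR 0.0105), and 92.9% of its 31-base words were shared with an overlapping read-through gene on the same strand. Without control 1 its call was lost (-1.30, FDR 0.0779). LINC00622 was the least even of the decreases, with 221 and 111 counts in control and 71 and 33 in PRMT5 KD (-1.71 ± 0.56, FDR 0.0444). Without control 1 the value was -0.93 (FDR 0.245), and its call was also lost without PRMT5 KD 1 (FDR 0.0508), without PRMT5 KD 2 (-1.27, FDR 0.181) and without a low count filter (FDR 0.0657).

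LINC01021, now PURPL, is an RNA switched on by p53 that acts back on p53 levels. It fell from 818 and 1132 counts in control to 235 and 333 in PRMT5 KD. The levels were 16.2 ± 1.09 CPM and 4.82 ± 1.17 CPM (SD, n = 2), without overlap (log2 fold change -1.75 ± 0.20, FDR 0.000849). The value stayed between -2.04 and -1.29 in every other fit. The gene spans chr5:27217714-27497871 on the plus strand. CDH9, a cadherin gene 96564 bases away, was lower as well (-3.03, FDR 0.000480).
LINC01021 (promoter, GRCh38.p14, chr5:27472042-27472341, plus strand): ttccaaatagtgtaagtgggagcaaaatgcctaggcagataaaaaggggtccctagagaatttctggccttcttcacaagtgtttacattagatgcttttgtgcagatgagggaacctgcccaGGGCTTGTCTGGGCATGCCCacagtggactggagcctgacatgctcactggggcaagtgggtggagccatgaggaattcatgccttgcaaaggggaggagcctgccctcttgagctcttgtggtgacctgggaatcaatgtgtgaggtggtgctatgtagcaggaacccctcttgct
This promoter is shown for its capitals, a match to the p53 pattern of 2 half-sites of 10 bases, here with 0 bases between them, where the search allowed up to 13. The full pattern occurred in 10 of 35116 promoters (0.0285%), and LINC01021 was the only one of 105 LINC promoters with it. A lone half-site occurred in 6.63% of all promoters and 7.62% of LINC promoters. None of the 6 other patterns was found in this window. The p53 search was added after the sequence had been seen.

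Of 5 LINC RNAs on chromosome X counted in all 4 libraries, 4 were called lower, against 28.4% of the 116 LINC RNAs and 20.4% of all names. Chromosome X had the highest share called lower of all chromosomes, 80%. The median over the 5 was -1.51. The 4 include LINC00685, which lies in the part shared with the Y. LINC00893 and LINC00894 are now named as divergent transcripts of the paired genes EOLA1 and EOLA2. LINC00893 had 276 and 350 counts in control and 108 in each PRMT5 KD library (-1.51 ± 0.21, FDR 0.00163), and LINC00894 had 428, 450, 142 and 163 (-1.52 ± 0.21, FDR 0.00146). Of their 31-base words, 59.0% and 43.6% also occur in transcripts of other genes, for both mostly of the same read-through gene, which overlaps LINC00893, so their counts may not be independent. LINC00632, the precursor of the circular RNA CDR1as, had 272, 323, 141 and 130 counts (-1.12 ± 0.21, FDR 0.00498), and its call was lost without control 1 (FDR 0.0510). Of 13 LINC RNAs on chromosome 1, 12 were not called and 1 was lower, and the difference between chromosomes was not tested.

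Among LINC RNAs with many reads, LINC00883, LINC00674 and LINC00963 were lower. LINC00883, now DUBR, which acts on chromatin in muscle cells, went from 52.0 and 53.02 CPM to 20.4 and 30.5 CPM (-1.05 ± 0.20, FDR 0.00545). LINC00674 went from 38.9 and 41.4 CPM to 21.4 and 20.5 CPM (-0.94 ± 0.12, FDR 0.00111), with replicates close together in each group, but 76.2% of its 31-base words also occur in another annotated gene. Both were called in every other fit. LINC00667 (-0.24 ± 0.12, FDR 0.134) and LINC01128 (0.13 ± 0.14, FDR 0.481) did not pass, at 26.4 against 22.3 CPM and 23.3 against 25.5 CPM, although LINC01128 passed with length and GC content taken out (0.50, FDR 0.0196).

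Among LINC RNAs described in squamous or other carcinoma, a list made with these data known, more were higher than lower. Of 21 listed, 19 were in the tables, 14 reached the count minimum and 11 did so in all 4 libraries. Of these 11, 5 were called higher (LINC00152, LINC00473, LINC00857, LINC00958 and LINC00704), 1 was called lower (LINC00963) and 5 were not called. Their median log2 fold change was 0.57, against 0.05 over all names, and 45.5% were called higher against the 23.5% background. LINC00704, now MANCR, a mitosis-associated RNA, had 262 and 285 counts in control and 512 and 503 in PRMT5 KD (0.90 ± 0.17, FDR 0.00539), and its call was lost without control 2 (0.79, FDR 0.0642). LINC00963 had 14.7 and 13.3 CPM in control and 8.11 and 5.40 CPM in PRMT5 KD (-1.05 ± 0.22, FDR 0.00715), and its call was lost without control 1 (FDR 0.0548).

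The 5 that were not called in that list were LINC00162, LINC00346, LINC00673, LINC00941 and LINC01116. LINC00162 had 12.8 and 11.9 CPM in control and 7.94 and 10.7 CPM in PRMT5 KD (-0.41 ± 0.18, FDR 0.105), and it passed without PRMT5 KD 2 (-0.65, FDR 0.0109) and with length and GC content taken out (-0.56, FDR 0.0457). LINC00346 had 15.0, 15.3, 18.1 and 15.7 CPM (0.16, FDR 0.377). LINC00941, which holds back keratinocyte differentiation, had 4.68 and 4.98 CPM in control and 6.03 and 5.98 CPM in PRMT5 KD (0.31 ± 0.18, FDR 0.175). LINC01116 (0.27, FDR 0.326) and LINC00673 (0.57, FDR 0.247) had 1 PRMT5 KD library well above the rest, PRMT5 KD 2 in each, at 7.91 and 0.883 CPM. The listed LINC00511, LINC00885, LINC01133, LINC00261 and LINC00312 stayed under the count minimum, with at most 12 counts in any library.

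Some carcinoma RNAs were met only through 1 group, so their differences follow from the rule and are given as counts. LINC00520 had 20 and 11 counts in control and 334 and 270 in PRMT5 KD, the highest of the 9 names counted only in PRMT5 KD. LINC00707 had 19 and 26 counts in control and 53 and 220 in PRMT5 KD, with PRMT5 KD 2 far above PRMT5 KD 1. LINC00460, an epithelial RNA often raised in HNSCC, went the other way, with 38 and 53 counts in control and 11 and 6 in PRMT5 KD. LINC01181 had no count in control and 65 and 23 in PRMT5 KD.

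**Figure D4:**
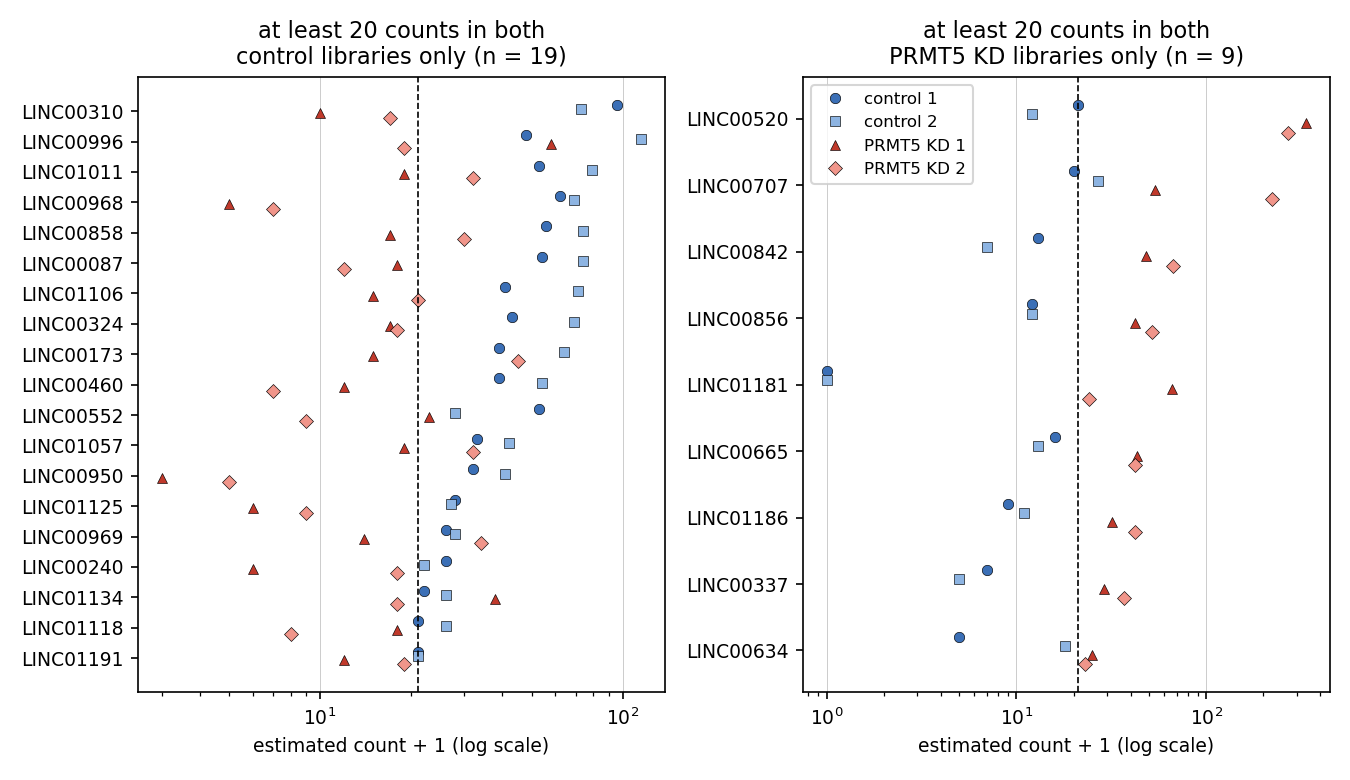
Estimated counts plus 1 (horizontal axes, log scale) of the 19 LINC RNAs with at least 20 counts only in control (left) and the 9 with that minimum only in PRMT5 KD (right), with 1 point per library. The dashed lines mark 20 counts, and the points on the right reach 334 counts for LINC00520.

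LINC00842 (12, 6, 47 and 66 counts) and LINC00856 (11, 11, 41 and 51 counts) completed the 4 highest of the PRMT5 KD group. Of the 19 counted only in control, the 4 highest were LINC00310 (95, 72, 9 and 16 counts), LINC00996 (47, 114, 57 and 18), LINC01011 (52, 78, 18 and 31) and LINC00968 (61, 68, 4 and 6). LINC00996 overlapped between the groups, and the other 3 did not, which follows in large part from the rule that took them in. The minimum itself separated close values. Just inside it, LINC01118 had 20, 25, 17 and 7 counts, LINC01191 had 20, 20, 11 and 18 and LINC00240 had 25, 21, 5 and 17. Just outside, LINC00243 had 19, 30, 22 and 17, LINC00662 had 23, 19, 16 and 16 and LINC00961 had 19, 27, 15 and 24.

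Some LINC names are listed for a protein product. Of 18 listed, 17 were in the tables and 9 were counted in all 4 libraries. Of the 9, 1 was called higher, 1 lower and 7 not at all, where 44% of all names were called, and the log2 fold changes had a median of 0.18 and a range of -0.90 to 0.63. LINC00998 encodes SMIM30, a small membrane protein of the endoplasmic reticulum. It had 18.4 and 22.0 CPM in control and 22.0 and 23.7 CPM in PRMT5 KD (0.18 ± 0.14, FDR 0.321), and with length and GC content taken out its sign turned (-0.18, FDR 0.332). LINC00116 encodes MTLN (mitoregulin), a peptide of the inner mitochondrial membrane. It had 181 and 193 counts in control and 299 and 227 in PRMT5 KD (0.50 ± 0.24, FDR 0.116). Without PRMT5 KD 1 the value was 0.27, and without PRMT5 KD 2 it was 0.68 and passed (FDR 0.0363). LINC00493 encodes SMIM26, a mitochondrial microprotein, and had 205, 291, 328 and 292 counts (0.35 ± 0.20, FDR 0.169).

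The reading frames of these 3 are shown because GENCODE annotates them as coding, and their translation was not examined here. Capitals are the start and stop codons, and each is taken from the GENCODE transcript, 5′ to 3′.
LINC00116 (171 bases, 56 codons before the stop, chr2:110211529-110245420): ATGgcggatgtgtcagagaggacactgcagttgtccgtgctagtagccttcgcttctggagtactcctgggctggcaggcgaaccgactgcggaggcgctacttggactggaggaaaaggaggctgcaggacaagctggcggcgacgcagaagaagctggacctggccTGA
LINC00998 (180 bases, 59 codons, chr7:113116718-113118560): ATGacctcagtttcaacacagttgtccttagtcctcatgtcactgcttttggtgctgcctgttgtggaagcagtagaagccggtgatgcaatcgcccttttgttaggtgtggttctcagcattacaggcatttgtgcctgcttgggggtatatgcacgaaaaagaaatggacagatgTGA
LINC00493 (288 bases, 95 codons, chr20:18567347-18569563): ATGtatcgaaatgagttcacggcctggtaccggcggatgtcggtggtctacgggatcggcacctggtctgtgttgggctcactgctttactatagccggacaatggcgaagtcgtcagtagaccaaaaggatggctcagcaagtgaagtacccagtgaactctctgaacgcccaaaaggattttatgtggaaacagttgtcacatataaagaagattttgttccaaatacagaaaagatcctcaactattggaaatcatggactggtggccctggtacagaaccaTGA
The frames take up 171 of 427, 180 of 1011 and 288 of 490 transcript bases.

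The called members of the protein group were LINC00984, now INAFM2, with 8.59 and 7.995 CPM in control and 13.1 and 11.3 CPM in PRMT5 KD (0.56 ± 0.16, FDR 0.0224), and LINC00176, now C20orf204, with 141 and 120 counts in control and 72 in each PRMT5 KD library (-0.86 ± 0.30, FDR 0.0476). Both lay near the threshold. The call of LINC00176 was lost without each of the 4 libraries in turn, at FDR 0.0534 to 0.297, and that of LINC00984 was lost without either control library (FDR 0.101 and 0.152) and without PRMT5 KD 1 (FDR 0.0708). LINC00094 (BRD3OS) was level, with 20.3, 22.9, 21.8 and 18.8 CPM (-0.09 ± 0.14, FDR 0.610). LINC00341, part of what is now SYNE3, showed -0.04 (FDR 0.864), and a separate entry for SYNE3 was also in the tables. LINC00959 (-0.90, FDR 0.0741) and LINC00672 (0.63, FDR 0.285) had few counts. LINC00959 passed without PRMT5 KD 1 (-1.22, FDR 0.0337), and LINC00672 ranged from 1.12 without PRMT5 KD 1, where it passed, to -0.17 without PRMT5 KD 2.

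Of the remaining names listed for proteins, LINC00087, LINC00950 and LINC01125 were counted only in control and LINC00634 (SMIM45) only in PRMT5 KD, with 53, 73, 17 and 11 counts, 31, 40, 2 and 4 counts, 27, 26, 5 and 8 counts, and 4, 17, 24 and 22 counts in turn. LINC00961, LINC00086, LINC00948 and LINC00675 stayed below the minimum.

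Several LINC RNAs start head to head with a protein-coding gene, within 2000 bases and on the other strand. Of 10 such RNAs counted in all 4 libraries, 1 was called higher (10%) and 3 lower (30%), with a median of -0.71. These shares were close to those of the 94 located LINC RNAs without such a partner, 9.57% higher and 29.8% lower. The median of those 94 was -0.30. Over all 14085 names 23.5% were called higher and 20.4% lower. In 9 of the 10 the fold change of the LINC RNA lay under that of its partner. LINC RNAs leaned lower in general, with a median of -0.34 over the 116 against 0.09 over 12540 protein-coding names. The pairs were chosen after their values were seen, and whether they differ from LINC RNAs and coding genes elsewhere was not tested. LINC00649 starts 280 bases from ATP5PO, a subunit of the mitochondrial ATP synthase. It fell from 195 and 282 counts to 73 and 76 (-1.64 ± 0.25, FDR 0.00206), while ATP5PO had 1880, 2469, 2239 and 2113 counts (0.03 ± 0.11, FDR 0.853). LINC00894 fell while EOLA2, whose start lies 87 bases away, showed 0.29 ± 0.13 (FDR 0.0965).

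**Figure D5:**
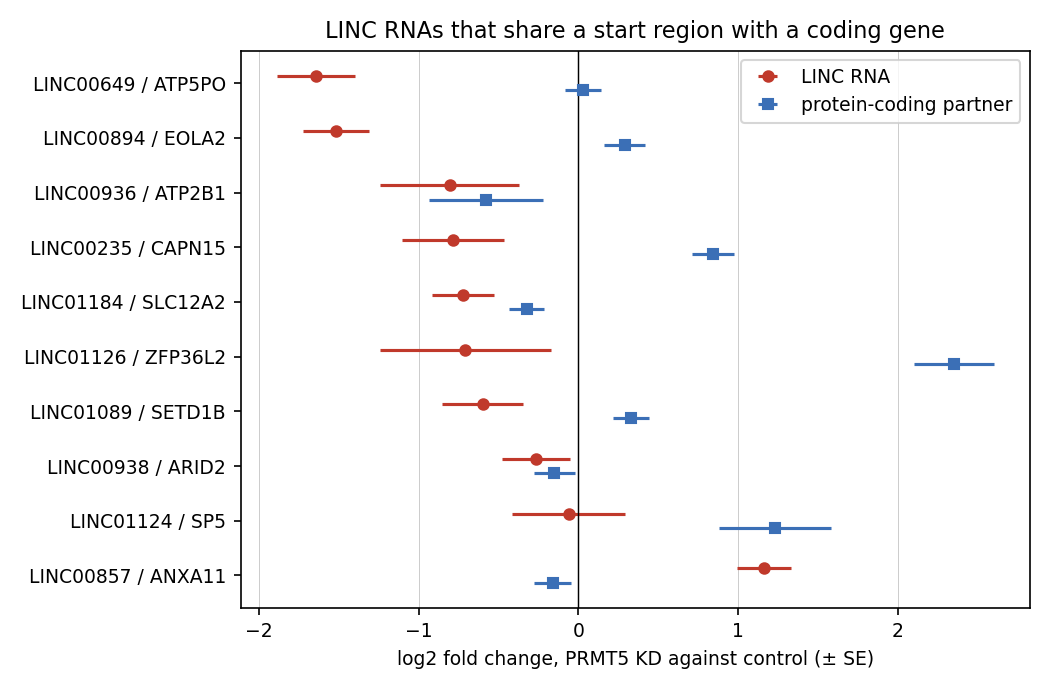
Log2 fold changes (horizontal axis, PRMT5 KD against control, ± SE) of 10 LINC RNAs (circles) and the protein-coding genes that start head to head with them (squares), 1 pair per row. The circle lies left of the square in 9 of the 10 rows, and LINC00857 with ANXA11 is the exception. The medians over all names were -0.34 for LINC RNAs and 0.09 for protein-coding names.

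LINC01126, which starts 604 bases from ZFP36L2, had 72, 107, 25 and 82 counts (-0.71 ± 0.53, FDR 0.304), with PRMT5 KD 1 lowest. ZFP36L2, which binds AU-rich elements and promotes decay of messenger RNAs, rose from 1149 and 1255 counts to 4618 and 7561 (2.35 ± 0.25, FDR 0.000953). LINC00235 had 55, 79, 32 and 44 counts (-0.78 ± 0.32, FDR 0.0773) beside CAPN15, which was higher (0.84, FDR 0.00232). LINC01124 beside the transcription factor gene SP5 showed -0.06 (FDR 0.899) against 1.23 (FDR 0.0246) for SP5, whose call was lost without either control library (FDR 0.165 and 0.101) and without PRMT5 KD 2 (0.78, FDR 0.0712). LINC01184 was lower (-0.72 ± 0.20, FDR 0.0199) beside SLC12A2, an ion cotransporter gene, at -0.32 (FDR 0.0457), under the fold threshold. The LINC01184 call was lost without either control library and with length and GC content taken out, with FDR up to 0.135.

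LINC00857 was the pair that went the other way, 1.16 against -0.16 (FDR 0.280) for ANXA11, which starts 1800 bases away. LINC01089 (-0.60, FDR 0.0859) and SETD1B (0.33, FDR 0.0483), LINC00936 (-0.81, FDR 0.167) and ATP2B1 (-0.58, FDR 0.218), and LINC00938 (-0.26, FDR 0.331) and ARID2 (-0.15, FDR 0.351) were not called on either side. SETD1B passed with length and GC content taken out (0.60, FDR 0.00567), and ATP2B1 was called lower without PRMT5 KD 1 (-1.26, FDR 0.000591). The library kit was directional, but the use of strand in counting is not given, so reads near shared starts and overlapping exons may be split between partners.

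Nearest protein-coding genes moved in either direction. Of 74 LINC RNAs whose nearest protein-coding gene was tested, 20 were called lower, and their neighbour was lower in 7, higher in 5 and not called in 8. The 8 called higher had no neighbour called higher, 2 called lower and 6 not called. Over all 12540 protein-coding names, 25.3% were called higher and 20.1% lower. LINC00263, now OLMALINC, lies 8273 bases from SCD, the gene of stearoyl-CoA desaturase, the enzyme that makes monounsaturated fatty acids. LINC00263 had 95 and 95 counts in control and 29 and 49 in PRMT5 KD (-1.27 ± 0.36, FDR 0.0225), and SCD had 341752 and 553323 counts in control and 12252 and 13589 in PRMT5 KD (-5.07 ± 0.25, FDR 0.000132). The LINC00263 call was lost without either control library, with length and GC content taken out and with the replicate number as a block, with FDR up to 0.128. LINC01163 lies 54609 bases from MKI67, the proliferation marker. It fell from 87 and 112 counts to 37 and 44 (-1.27 ± 0.29, FDR 0.0103) while MKI67 was higher (1.71 ± 0.17, FDR 0.000509), and its call was lost without either control library, with FDR up to 0.0755.

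Sequence shared with other genes limits how surely reads can be assigned to some of these RNAs. Of the 104 counted in all 4 libraries that have a transcript of their own in GENCODE, 58 shared under 10% of their 31-base words with transcripts of other genes, on either strand, and 15 shared over 50%. Among the 58, 7 were called higher, 18 lower and 33 not called, with a median of -0.28 on the log2 scale. Of the 116 LINC RNAs 9.48% were called higher and 28.4% lower, and of all 14085 names 23.5% and 20.4%. The 15 included LINC00941 (98.0%), LINC00843 (95.5%), LINC00152 (79.6%), LINC00674 (76.2%), LINC00667 (62.6%), LINC00963 (62.1%) and LINC00657 (55.8%). For LINC00657 the gene with most shared words was OVCH1-AS1, which had at most 2 counts in any library. A pattern of 4 runs of at least 3 G with loops of 1 to 7 bases, which can fold as a G-quadruplex, was found in 20 of 128 LINC transcripts (15.6%), 19.7% of other long noncoding and 25.6% of protein-coding transcripts. Per 100 kb of transcript the order differed, with 10.8 matches in LINC, 11.9 in other long noncoding and 9.53 in protein-coding transcripts. LINC RNAs had a median of 3 exons and 16.4% had a single exon, against 9 exons and 2.52% among protein-coding names tested.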

How the data were processed

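RNA-seq of UMSCC74B cells was measured in 2 control and 2 PRMT5 KD libraries. The authors deposited estimated counts per gene, 1 table per library, not normalized; the submitters' processing notes name FastQC, Trim Galore, STAR, Salmon, DESeq2 and GRCh38, without versions or roles. The paper's methods describe counting on protein-coding genes, which the noncoding names in the tables do not match. Expected counts were rounded, rows of a name summed, and 28 names turned into dates (0.150% to 0.161% of counts) left out. All 15240 names with at least 20 counts in both libraries of a group were fitted with edgeR 4.0.16 (robust quasi-likelihood test, TMM factors over all names, group as the term, R 4.3.3); FDR is the Benjamini-Hochberg adjusted p over all of them, and SE is the log2 fold change over the root of F. CPM uses the TMM-scaled totals. LINC names with at least 20 counts in only 1 group got no reported test.

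The LINC names, lists and alternatives were chosen with earlier results of these data known. Genes were named by a rule: the 10 highest by CPM, the 8 largest called changes each way, the 4 highest of each single-group set, the role lists, and 3 names on each side of the minimum. LINC00263, LINC00632, LINC00893, LINC00894, LINC01163, the pairs by start site, other neighbours and the p53 pattern were chosen after their values were seen. Names were matched to GENCODE 44 (23203 names) and RefSeq GRCh38.p14 (24904 names). Alternatives were DESeq2 1.42.0, other scalings and filters, a length and GC spline, a replicate block and each library left out. The fit was tested on simulated data.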

Additional observations from a re-analysis of the deposited data

How the results depend on the processing

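The number of calls fell most when a control library was left out, and in each such fit the lone library left in its group is assumed to vary like the other group. The number of LINC RNAs called, 44, ranged from 20 to 48 when each library was left out in turn, those called higher from 3 to 11 and those called lower from 13 to 37, and the number of all gene names called, 6911, ranged from 4067 to 7138. The median over the 116 ranged from -0.43 to -0.25. At a log2 fold change of 1 or more in either direction, 7 LINC RNAs were called higher and 24 lower, and 3693 names in all. With the replicate number as a block, 34 LINC RNAs (10 higher, 24 lower) and 6357 names were called. Deviations of same-numbered libraries from their group means correlated at -0.12 over 14085 names, so the numbers were not taken as pairs, and with the pairing crossed, an alternative chosen after seeing the data, 44 LINC RNAs and 7073 names were called. Among the named LINC RNAs and their partners, the sign turned only for differences that were not called: with length and GC content taken out for LINC00341 (0.36), LINC00998 (-0.18), ANXA11 (0.013) and ARID2 (0.079), and when each library was left out for LINC00672 (-0.17 to 1.12), LINC01116 (-0.024 to 0.49), LINC01128 (-0.023 to 0.23) and ATP5PO, listed as ATP5O (-0.034 to 0.055). ATP5PO also turned with DESeq2 (-0.0019), total counts alone (-0.0082), TMM over protein-coding names (-0.049) and length and GC (-0.15). DESeq2 called 44 LINC RNAs, and TMM over protein-coding names, also added after seeing the data, moved the median to -0.42. A minimum of 10 counts gave 170 LINC RNAs and a minimum of 50 gave 104. At low counts the spread between libraries limits what can be called: a difference that was not called is not shown to be absent.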
